A study of Mus musculus with 9 samples.

Results

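The PD-1 ligands and B7-type costimulators are a set of 10 genes, most of which let antigen-presenting cells send activating or inhibitory signals to T cells. The members were picked out by gene symbol through the GENCODE M21 mouse annotation, and all 10 were found among the 47729 gene identifiers of the count files. They are Pdcd1lg2, which encodes PD-L2, Cd274, which encodes PD-L1, the B7 genes Cd80, Cd86, Icosl and Cd276, the inhibitory immunoglobulin-domain genes Vsir (VISTA) and Vsig4 (CRIg), and Cd40 and Havcr2 (TIM-3). Cd40 belongs to the TNF receptor family and Havcr2 to the TIM family, so the set goes beyond B7 proteins in the strict sense.

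The genes were measured by RNA-seq in 9 libraries of peritoneal macrophages sorted by flow cytometry, 3 from each of 3 groups named tissue converted, monocyte derived and tissue resident. All mice had the genotype Cx3cr1CreERT2-IRES-EYFP/+ Rosa26-stopfl-tdTomato/+, in which the Cx3cr1 locus drives a tamoxifen-inducible Cre and EYFP and recombined cells carry tdTomato. All mice also received IL-4 complexes (5 µg of IL-4 with 25 µg of anti-IL-4) into the peritoneum on alternate days over the last 4 days, so no group lacked this signal for alternative activation. Mice of the converted group had been given 2 ml of thioglycollate, an irritant that recruits blood monocytes to the cavity, and a tamoxifen diet lasting 10 weeks. Mice of the monocyte-derived group had been given 2 ml of thioglycollate 4 days before harvest without a tamoxifen diet, and no treatment beyond IL-4 complexes is listed for the resident group. The sources used here give neither the age of the mice nor the sort gates, and they do not say if each library came from a different mouse. Each p-value is therefore set against the spread among libraries of a group, which may be technical.

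PD-1 is an inhibitory receptor of activated T cells, and both of its ligands dampen T-cell responses in tissues. PD-L1 is made by many cell types and is raised by interferons, whereas PD-L2 is largely restricted to dendritic cells, macrophages and some B cells and is raised by IL-4 through the transcription factor STAT6. CD80 and CD86 bind the activating receptor CD28 and the inhibitory receptor CTLA-4, and CRIg is both a complement receptor for fragments of C3 and an inhibitor of T cells that is typical of tissue-resident macrophages.

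Libraries held 15220884 to 20496258 reads in genes. The summed level of 9 general macrophage markers was 6738 to 8349 CPM (reads of a gene scaled to library size) in converted, 4155 to 6803 CPM in monocyte-derived and 7125 to 7440 CPM in resident libraries, with no marker without a read in any group. Adgre1 (F4/80) averaged 3077 ± 377 CPM in converted, 343 ± 105 CPM in monocyte-derived and 2978 ± 32.7 CPM in resident libraries (SD, n = 3 each, as for every mean below). The 9 markers did not move together. In the same order of groups, Csf1r averaged 1120 ± 42.9, 1095 ± 55.8 and 1105 ± 37.7 CPM, and Lyz2 576 ± 219, 1837 ± 922 and 437 ± 52.4 CPM. In converted against monocyte-derived libraries edgeR called 4 of the 9 higher and 2 lower, and 3 did not pass (all genes: 25.8% higher, 24.9% lower). Cx3cr1, whose locus drives the Cre, had 6, 20 and 10 reads over the 3 libraries of the converted, monocyte-derived and resident groups. Monocyte-derived library 1 stood apart from the others of its group, with 1345 CPM of the monocyte receptor gene Ccr2 against 464 and 662 CPM. The Y-linked Ddx3y averaged 91.5 ± 6.09 CPM in converted and 90.6 ± 4.10 CPM in resident libraries and was without reads in monocyte-derived libraries, which held 3247 reads of Xist, so sex and thioglycollate timing cannot be told apart from the monocyte-derived group. The summed level of 14 B-cell markers was 117 to 239 CPM in converted, 38.0 to 88.9 CPM in monocyte-derived and 1245 to 1605 CPM in resident libraries. In bulk libraries, fewer cells of a type and less RNA per cell cannot be told apart.

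Of the 10 genes, 9 had enough reads to be tested, and Cd276 did not. In converted against monocyte-derived libraries, 3 of the 9 were higher (Vsig4, Cd80 and Vsir), 4 were lower (Pdcd1lg2, Havcr2, Icosl and Cd86) and 2 did not pass the test (Cd274 and Cd40). Over all 13223 tested genes, 50.7% were called in this comparison, 25.8% as higher and 24.9% as lower. In monocyte-derived against resident libraries, 3 were higher (Pdcd1lg2, Havcr2 and Icosl), 3 were lower (Vsig4, Cd80 and Vsir) and 3 did not pass, against 50.7% of all genes called, 24.9% as higher and 25.7% as lower. In converted against resident libraries, Pdcd1lg2 alone passed the test, as lower, against 6.07% of all genes called, 4.26% as lower and 1.82% as higher. There, 2 of the 9 genes (Pdcd1lg2 and Vsig4, both lower) had an unadjusted p under 0.05 in edgeR, against 2749 of all 13223 genes. In the same comparison limma-voom called both and DESeq2 called Pdcd1lg2 only (all genes: 869 and 1315). The 3 comparisons share libraries in pairs, so they are not independent of each other.

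The median log2 fold change of the 9 genes was -0.51 in converted against monocyte-derived, 0.13 in monocyte-derived against resident and -0.22 in converted against resident libraries, where the medians of all genes were -0.01, -0.00 and 0.01. The libraries of both groups did not overlap for 7 of the 9 genes in converted against monocyte-derived (all genes: 56.3%), for 7 in monocyte-derived against resident (all genes: 59.5%) and for 3 in converted against resident libraries (all genes: 37.3%). With the log2 summed level of the B-cell markers as a further term of the model, none of the 6 members called in monocyte-derived against resident libraries passed in edgeR (all genes: 148 called). An unadjusted p under 0.05 was found there for 3 members (all genes: 2118). That term follows the groups closely, and it raised the median standard error over all genes to 0.77 from 0.168 on the log2 scale.

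**Figure D1:**
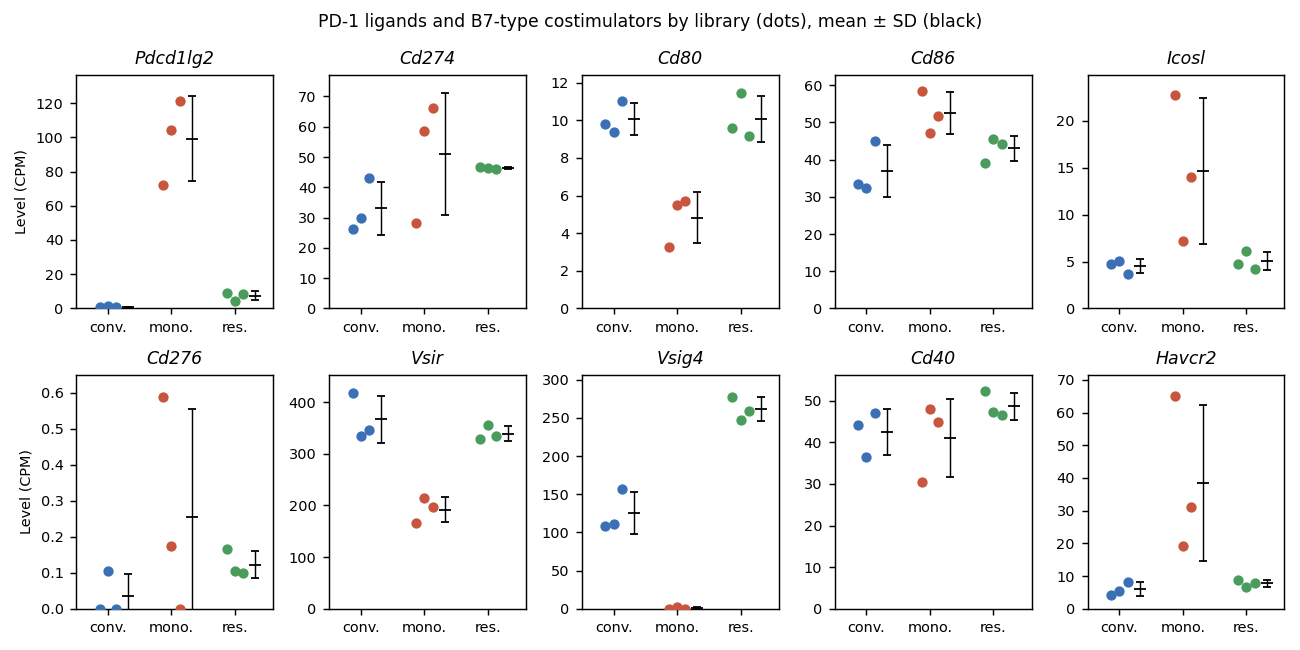
Levels of the 10 genes in CPM (vertical axes, linear and on a separate scale per gene) in each library, with converted (conv.), monocyte-derived (mono.) and resident (res.) groups from left to right; dots are libraries and black bars the mean ± SD of 3 libraries, cut at 0 for Cd276. Pdcd1lg2 lies between 72.2 and 121 CPM in the monocyte-derived libraries and at or below 9.19 CPM in all others, whereas Vsig4 lies above 100 CPM in all converted and resident libraries and at or below 1.97 CPM in the monocyte-derived ones.

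**Figure D2:**
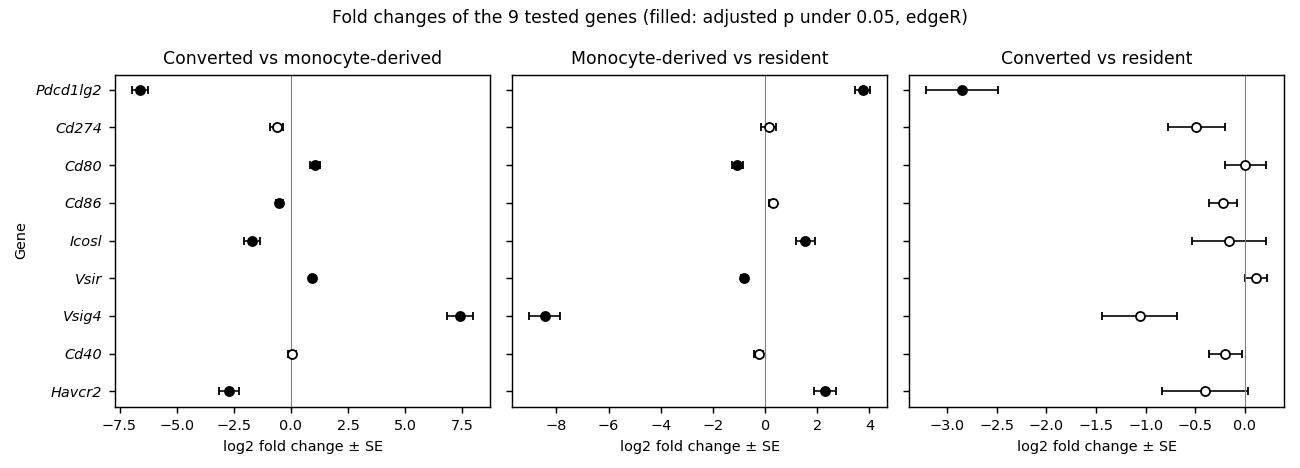
Log2 fold changes of the 9 tested genes (horizontal axes, which differ in scale between panels) with their standard errors, from edgeR, in converted against monocyte-derived (left), monocyte-derived against resident (middle) and converted against resident libraries (right); filled dots have an adjusted p under 0.05. The filled dots number 7, 6 and 1 from left to right, and Pdcd1lg2 is the gene filled in every panel.

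Pdcd1lg2 and Cd274 are neighbours on chromosome 19, and their levels followed different patterns. In GRCm38, Cd274 covers chr19:29367455-29388095 and Pdcd1lg2 chr19:29410919-29471161, both on the plus strand, with 22823 bases and no other protein-coding gene between them. The 250 bases before the start of each are shown because the 2 ligand genes differed in how far they moved between groups, and those of Vsig4 because it was the member most reduced in monocyte-derived libraries. Sequences and gene starts are from RefSeq (GRCm38.p6), which listed a promoter for 8 of the 10 genes. Capitals mark matches, on either strand, to any of 4 motifs searched from 250 bases before to 50 after the start: a STAT6-type element (TTCNNNNGAA), a shorter STAT element (TTCNNNGAA), the core bound by PU.1, the macrophage lineage factor (GAGGAA), and an AP-1 element (TGANTCA).
Pdcd1lg2, chr19:29410669-29410918, plus strand: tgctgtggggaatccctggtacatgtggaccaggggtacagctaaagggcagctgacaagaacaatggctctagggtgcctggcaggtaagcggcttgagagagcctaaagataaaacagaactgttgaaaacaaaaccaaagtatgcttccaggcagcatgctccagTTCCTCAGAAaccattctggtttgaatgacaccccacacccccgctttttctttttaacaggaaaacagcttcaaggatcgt
Cd274, chr19:29367188-29367437, plus strand: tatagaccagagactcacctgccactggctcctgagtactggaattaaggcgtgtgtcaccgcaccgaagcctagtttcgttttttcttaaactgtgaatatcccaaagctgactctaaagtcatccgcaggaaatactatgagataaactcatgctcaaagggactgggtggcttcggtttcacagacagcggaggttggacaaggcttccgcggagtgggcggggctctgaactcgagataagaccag
Vsig4, chrX:96293439-96293688, minus strand: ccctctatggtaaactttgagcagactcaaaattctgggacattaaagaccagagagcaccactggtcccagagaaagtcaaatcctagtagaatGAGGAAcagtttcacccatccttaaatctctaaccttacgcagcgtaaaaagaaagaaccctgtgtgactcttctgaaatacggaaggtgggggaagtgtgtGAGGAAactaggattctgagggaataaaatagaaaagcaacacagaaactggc

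The Pdcd1lg2 stretch held 1 STAT6-type match, TTCCTCAGAA, beginning 82 bases before the start, and its first 6 bases are also the reverse complement of the PU.1 core, so both matches lie on the same bases. Of the 32851 RefSeq promoters of the same length, 6.95% held a STAT6-type match and 28.3% a PU.1 core. Cd274 had no match to any of the 4 motifs, and Vsig4 had 2 PU.1 cores, beginning 155 and 53 bases before its start. The Cd274 window had 52.7% G and C and 15 CpG dinucleotides, against 46.0% and 3 for Pdcd1lg2 and 44.3% and 3 for Vsig4. The medians over all RefSeq promoters were 52.7% and 7. The Cd274 stretch overlaps the start of the neighbouring gene Plgrkt, which covers chr19:29348599-29367390 on the minus strand. A match is a string of letters, and no binding was measured here.

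PD-L2 transcripts were abundant in monocyte-derived macrophages and nearly absent in converted ones. Pdcd1lg2 had 0.947, 1.16 and 0.957 CPM in the converted libraries (58 reads in all), 72.2, 104 and 121 CPM in the monocyte-derived libraries (5028 reads) and 9.19, 4.30 and 8.66 CPM in the resident libraries (426 reads). All 3 groups stood apart without overlap, with the converted libraries lowest and the resident libraries in between. Pdcd1lg2 was 96.6-fold lower in converted than in monocyte-derived libraries (log2 fold change -6.59 ± 0.35 SE, edgeR adjusted p = 6.23e-07). It was 13.4-fold higher in monocyte-derived than in resident libraries (log2 3.75 ± 0.28, adjusted p = 5.88e-06). It was also 7.20-fold lower in converted than in resident libraries (log2 -2.85 ± 0.36, adjusted p = 0.00307).

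The difference between converted and resident libraries coincided with the B-cell markers, which summed to 117, 239 and 128 CPM in converted libraries 1 to 3 and to 1245, 1360 and 1605 CPM in resident libraries 1 to 3. In mice, a subset of peritoneal B-1 cells is known to carry PD-L2. With the B-cell sum as a term of the model the log2 fold change was -2.20 and did not pass (adjusted p = 0.554), and the part of these cells in the result was not tested. In the monocyte-derived libraries, where Pdcd1lg2 was highest, the B-cell sum was 38.0 to 88.9 CPM. Dendritic-cell markers, 10 genes of another cell type that makes PD-L2, summed to 187 to 287 CPM in converted, 347 to 440 CPM in monocyte-derived and 374 to 410 CPM in resident libraries, with no marker without a read in any group. Clec10a led these sums, at 184 ± 19.9, 309 ± 58.3 and 189 ± 27.2 CPM in the same order, and other markers were far lower. Flt3 averaged 0.258 ± 0.175, 8.24 ± 4.64 and 0.533 ± 0.133 CPM in that order. Zbtb46 averaged 2.9 ± 0.418, 6.91 ± 1.93 and 4.45 ± 0.528 CPM. Of the 9 markers tested, 5 were higher and 1 lower in monocyte-derived against resident libraries (all genes: 24.9% and 25.7%). In converted against resident libraries 0 were higher and 3 lower (all genes: 1.82% and 4.26%). The part of dendritic cells in the result was not tested.

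PD-L1 transcripts differed far less. Cd274 had 26.1, 30.0 and 43.0 CPM in the converted libraries, 28.1, 58.6 and 66.3 CPM in the monocyte-derived libraries and 46.8, 46.3 and 46.2 CPM in the resident libraries. The resident libraries lay within 1 CPM of each other, the monocyte-derived libraries spanned the widest range, with library 1 lowest, and the converted libraries all lay below the resident ones. No comparison passed the test: the log2 fold change was -0.63 ± 0.29 in converted against monocyte-derived libraries (adjusted p = 0.0992), 0.13 ± 0.29 in monocyte-derived against resident (adjusted p = 0.725) and -0.49 ± 0.29 in converted against resident (adjusted p = 0.382). Without monocyte-derived library 1, Cd274 was lower in converted than in monocyte-derived libraries (log2 -0.92, adjusted p = 0.00139). An annotated antisense gene shares 14.1% of the exon bases of Cd274, and the sources used here do not say if reads were counted by strand, so reads from it cannot be separated.

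The balance of the 2 PD-1 ligands was reversed between groups. Per length of annotated exon, Cd274 reads exceeded Pdcd1lg2 reads 14.6-, 13.8- and 23.7-fold in the converted libraries, while Pdcd1lg2 reads exceeded Cd274 reads 4.74-, 3.28- and 3.37-fold in the monocyte-derived libraries. In the resident libraries Cd274 exceeded Pdcd1lg2 2.75-, 5.79- and 2.88-fold. The log2 ratio of Pdcd1lg2 to Cd274 averaged -4.07 ± 0.43 in converted, 1.91 ± 0.30 in monocyte-derived and -1.84 ± 0.60 in resident libraries, and no libraries of any 2 groups overlapped. The difference was -5.98 for converted minus monocyte-derived, 3.75 for monocyte-derived minus resident and -2.23 for converted minus resident libraries, each with a two-sided exact permutation p of 0.1, the smallest that 3 libraries against 3 allow.

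The genes around the ligands mostly did not share the Pdcd1lg2 pattern. Upstream of Cd274, Rln1 had no read in any library, and Plgrkt, which encodes a plasminogen receptor, averaged 58.2 ± 0.632 CPM in converted, 63.7 ± 14.3 CPM in monocyte-derived and 64.7 ± 3.16 CPM in resident libraries and passed in no comparison. Without monocyte-derived library 1, however, Plgrkt was lower in converted than in monocyte-derived libraries (log2 -0.31, adjusted p = 0.00733). Downstream of Pdcd1lg2, Ric1 passed in no comparison, at 30.9 ± 5.20, 27.4 ± 4.41 and 30.2 ± 0.987 CPM in converted, monocyte-derived and resident libraries. Ermp1 was higher in converted than in monocyte-derived libraries, at 53.0 ± 3.27 against 37.8 ± 4.79 CPM (log2 0.49 ± 0.12, adjusted p = 0.0056), which is opposite in direction to Pdcd1lg2.

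The long noncoding gene A930007I19Rik, on the opposite strand at chr19:29464750-29523159, overlaps the end of Pdcd1lg2 without sharing exon bases with it, and was chosen after its values were seen. It had 1.99, 1.63 and 2.25 CPM in the converted libraries, 5.97, 16.0 and 14.5 CPM in the monocyte-derived libraries and 3.03, 1.57 and 2.25 CPM in the resident libraries. All monocyte-derived libraries lay above all others. The gene was lower in converted than in monocyte-derived libraries (log2 -2.63 ± 0.39, adjusted p = 0.000314) and higher in monocyte-derived than in resident libraries (log2 2.41 ± 0.38, adjusted p = 0.000505), while converted against resident libraries did not pass (log2 -0.22 ± 0.40, adjusted p = 0.807). Without a stated strand setting, reads of these genes cannot be told apart with certainty.

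**Figure D3:**
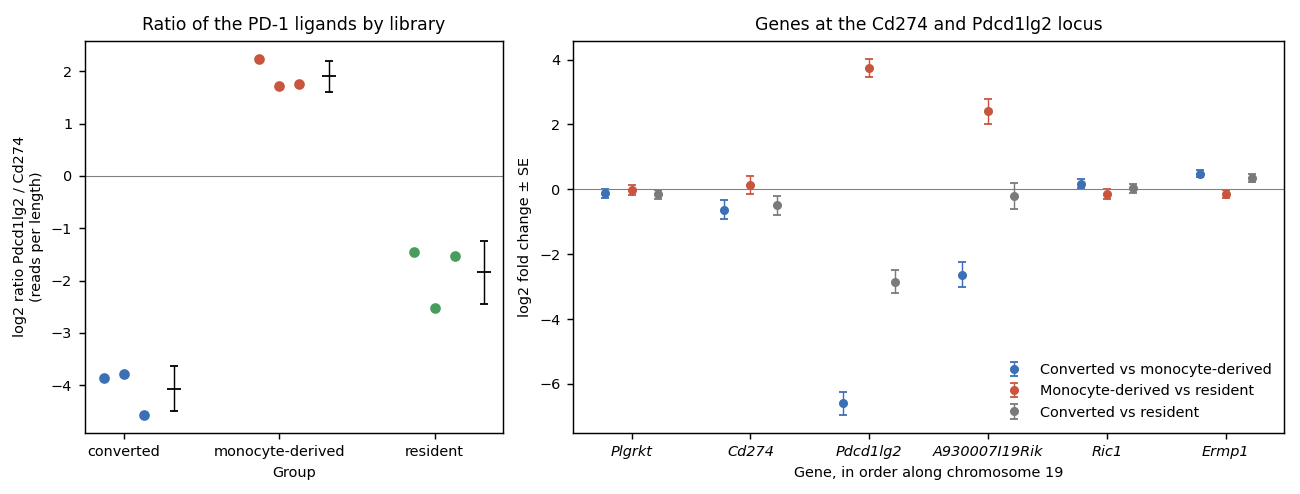
Left, log2 ratio of Pdcd1lg2 to Cd274 reads per exon length (vertical axis) in each library of the converted, monocyte-derived and resident groups, with the mean ± SD of 3 libraries in black; the monocyte-derived libraries lie above 0 (mean 1.91) and all others below. Right, log2 fold changes ± SE (vertical axis) of genes in their order along chromosome 19 (Rln1, with no read, is left out) in the 3 comparisons; Pdcd1lg2 lies more than 2 from 0 in all 3 comparisons and A930007I19Rik in the 2 that involve monocyte-derived libraries, while A930007I19Rik in converted against resident libraries and Plgrkt, Cd274, Ric1 and Ermp1 throughout lie within 1 of 0.

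In converted against monocyte-derived libraries Cd80 was higher and Cd86, the other ligand of CD28 and CTLA-4, was lower, and the Cd86 call did not hold with every library left out. Cd80 had 9.82, 9.40 and 11.03 CPM in the converted libraries, 3.25, 5.49 and 5.70 CPM in the monocyte-derived libraries and 9.57, 11.4 and 9.15 CPM in the resident libraries. The monocyte-derived libraries lay below all others, and converted and resident libraries overlapped. Cd80 was 2.1-fold higher in converted than in monocyte-derived libraries (log2 1.07 ± 0.22, adjusted p = 0.00225) and 2.09-fold lower in monocyte-derived than in resident libraries (log2 -1.07 ± 0.22, adjusted p = 0.00235). Between converted and resident libraries the log2 fold change was 0.00 ± 0.21 (adjusted p = 0.994), and its sign depended on the scaling. With the B-cell sum in the model both calls missed the threshold, with an adjusted p of 0.0562 in converted against monocyte-derived and 0.596 in monocyte-derived against resident libraries.

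Cd86 had 33.5, 32.3 and 45.0 CPM in the converted libraries, 58.5, 47.2 and 51.7 CPM in the monocyte-derived libraries and 39.2, 45.7 and 44.3 CPM in the resident libraries. The monocyte-derived libraries were the highest, by a small margin, and converted library 3 reached the resident range. Cd86 was 1.42-fold lower in converted than in monocyte-derived libraries (log2 -0.51 ± 0.14, adjusted p = 0.0125). That call was lost without converted library 1 (adjusted p = 0.0535), without converted library 2 (adjusted p = 0.0539) and with the B-cell sum in the model (adjusted p = 0.209). Monocyte-derived against resident libraries gave a log2 fold change of 0.29 ± 0.14 (adjusted p = 0.116) and converted against resident libraries one of -0.22 ± 0.14 (adjusted p = 0.416).

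Icosl, the ligand of the T-cell costimulator ICOS, had 4.74, 5.10 and 3.66 CPM in the converted libraries, 22.8, 7.23 and 14.0 CPM in the monocyte-derived libraries and 4.79, 6.08 and 4.21 CPM in the resident libraries. The monocyte-derived libraries were all the highest and spread most, with library 1 at the top. Icosl was 3.26-fold lower in converted than in monocyte-derived libraries (log2 -1.70 ± 0.37, adjusted p = 0.00328) and 2.92-fold higher in monocyte-derived than in resident libraries (log2 1.55 ± 0.36, adjusted p = 0.00543). Without monocyte-derived library 1 both calls held, at log2 -1.23 (adjusted p = 0.00471) and 1.07 (adjusted p = 0.00953). Converted and resident libraries gave a log2 fold change of -0.16 ± 0.37 (adjusted p = 0.852).

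Cd276 (B7-H3) was barely detected. It had 0, 2 and 0 reads in the converted libraries, 11, 3 and 0 reads in the monocyte-derived libraries and 3, 2 and 2 reads in the resident libraries. A count of 0 allows a level of up to 0.149 and 0.169 CPM in converted libraries 1 and 3 and up to 0.194 CPM in monocyte-derived library 3, counting error only. No difference was detectable at this depth.

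Vsir and Vsig4, which encode inhibitory proteins, were lower in monocyte-derived macrophages. Vsir had 419, 335 and 346 CPM in the converted libraries, 166, 214 and 196 CPM in the monocyte-derived libraries and 328, 355 and 334 CPM in the resident libraries. The monocyte-derived libraries lay below all others, and converted and resident libraries overlapped. Vsir was 1.91-fold higher in converted than in monocyte-derived libraries (log2 0.93 ± 0.12, adjusted p = 0.000107) and 1.77-fold lower in monocyte-derived than in resident libraries (log2 -0.82 ± 0.12, adjusted p = 0.000244). Converted against resident libraries gave a log2 fold change of 0.11 ± 0.11 (adjusted p = 0.636).

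Vsig4 had 108, 111 and 157 CPM in the converted libraries, 0.213, 1.97 and 0 CPM in the monocyte-derived libraries and 278, 247 and 260 CPM in the resident libraries. The groups did not overlap, and the 38 reads of the monocyte-derived group came from library 2 (34 reads) and library 1 (4 reads). Vsig4 was 169-fold higher in converted than in monocyte-derived libraries (log2 7.40 ± 0.58, adjusted p = 7.17e-06) and 352-fold lower in monocyte-derived than in resident libraries (log2 -8.46 ± 0.59, adjusted p = 3.63e-06). Without monocyte-derived library 2 these log2 fold changes were 9.99 and -11.06. Markers typical of resident cavity macrophages, among them the transcription factor gene Gata6, were also lower in monocyte-derived libraries, with 8 markers summing to 2198 to 2814 CPM in converted, 87.8 to 156 CPM in monocyte-derived and 2349 to 2459 CPM in resident libraries, and none was without a read.

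Between converted and resident libraries Vsig4 averaged 125 ± 27.7 against 261 ± 15.6 CPM, a log2 fold change of -1.06 ± 0.38 that did not pass (adjusted p = 0.146). The 3 libraries of each group did not overlap. The gene passed as lower in converted libraries when these 6 libraries were fitted alone (log2 -1.08, adjusted p = 0.00228), with limma-voom (adjusted p = 0.0126) and without monocyte-derived library 2 (adjusted p = 0.0107). Vsig4 lies on the X chromosome, and converted and resident libraries both had Ddx3y reads and at most 2 reads of Xist in all.

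Cd40, the receptor through which helper T cells activate antigen-presenting cells, had 44.1, 36.4 and 47.0 CPM in the converted libraries, 30.5, 47.9 and 44.9 CPM in the monocyte-derived libraries and 52.4, 47.2 and 46.5 CPM in the resident libraries. All 3 groups overlapped, and monocyte-derived library 1 was the lowest of the 9. The log2 fold change was 0.05 ± 0.17 in converted against monocyte-derived (adjusted p = 0.826), -0.25 ± 0.16 in monocyte-derived against resident (adjusted p = 0.242) and -0.20 ± 0.16 in converted against resident libraries (adjusted p = 0.552). The first of these turned to -0.13 without monocyte-derived library 1 and was not past the threshold there either.

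Havcr2, which encodes the inhibitory receptor TIM-3, had 4.14, 5.36 and 8.27 CPM in the converted libraries, 65.1, 19.1 and 31.0 CPM in the monocyte-derived libraries and 8.75, 6.77 and 7.83 CPM in the resident libraries. The monocyte-derived libraries were all the highest, with library 1 more than 2-fold above the other 2, and converted and resident libraries overlapped. Havcr2 was 6.51-fold lower in converted than in monocyte-derived libraries (log2 -2.70 ± 0.43, adjusted p = 0.000657) and 4.94-fold higher in monocyte-derived than in resident libraries (log2 2.30 ± 0.42, adjusted p = 0.00151). Without monocyte-derived library 1 the log2 fold changes were -2.08 (adjusted p = 0.000171) and 1.69 (adjusted p = 0.000618). Natural killer cells also carry TIM-3, and 7 of their markers summed to 2.04 to 3.20 CPM in converted and 18.2 to 29.0 CPM in resident libraries. In monocyte-derived libraries 1 to 3 these markers summed to 23.0, 30.35 and 129 CPM. The part of natural killer cells in the result was not tested. Converted against resident libraries gave a log2 fold change of -0.40 ± 0.43 (adjusted p = 0.661).

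The order of the members within each group was read from levels per kilobase of annotated exon (CPM per kb). In converted libraries Vsig4 (84.5 ± 18.7) and Vsir (73.1 ± 9.07) led and overlapped, followed by Cd40 (12.5 ± 1.62), Cd86 (10.1 ± 1.92) and Cd274 (9.13 ± 2.45), which overlapped from one to the next, and Pdcd1lg2 (0.520 ± 0.0601) was the lowest but for Cd276. In monocyte-derived libraries Pdcd1lg2 (50.6 ± 12.7) and Vsir (38.3 ± 4.86) led and overlapped, and Cd86 (14.3 ± 1.55), Havcr2 (14.1 ± 8.76), Cd274 (14.1 ± 5.58) and Cd40 (12.1 ± 2.74) came next and overlapped from one to the next. In resident libraries Vsig4 (176 ± 10.5) lay above Vsir (67.6 ± 2.80), and Cd40 (14.3 ± 0.956), Cd274 (12.8 ± 0.0985) and Cd86 (11.8 ± 0.937) came next without overlap between neighbours. The order of these 3 depends on the length used. Cd86 has 3661 annotated exon bases but a longest transcript of 2539, Cd40 has 3406 and 2986, and Cd274 has 3622 for both. With the longest transcript as length, 11 mean levels of members in a group moved by at least their SD. By mean level Pdcd1lg2 thus ranked first in monocyte-derived, sixth in resident and ninth in converted libraries. Its resident rank was not the same in every library. In resident library 2 it had 2.19 CPM per kb, below Havcr2 (2.49) and Cd80 (3.09).

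The summed level of the 10 genes was 196 ± 22.7 CPM per kb in converted, 149 ± 15.04 CPM per kb in monocyte-derived and 293 ± 9.21 CPM per kb in resident libraries. Pdcd1lg2 made up 0.221% to 0.336% of that sum in converted, 27.8% to 38.0% in monocyte-derived and 0.769% to 1.55% in resident libraries. Vsig4 made up 38.1% to 48.2% in converted, at most 0.881% in monocyte-derived and 58.3% to 61.7% in resident libraries. Vsir kept a large share in every library, 31.3% to 43.7% in converted, 24.1% to 28.4% in monocyte-derived and 21.6% to 24.8% in resident libraries.

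**Figure D4:**
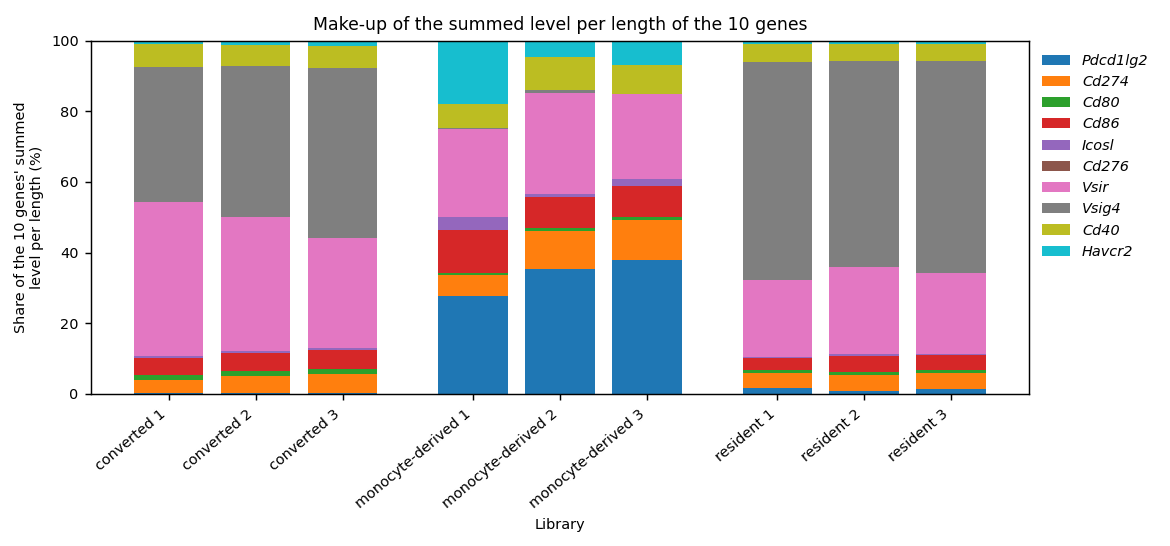
Share of each gene in the summed level per exon length of the 10 genes (vertical axis, %) for each library, in the order converted, monocyte-derived and resident. Vsig4 and Vsir together fill most of the bars of converted and resident libraries, and Pdcd1lg2 takes 27.8% to 38.0% in the monocyte-derived libraries.

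Receptors and partners of the members are mostly lymphocyte genes. The counts of this and the following lists stand against the shares over all genes, 50.7% called in converted against monocyte-derived (25.8% higher, 24.9% lower), 50.7% in monocyte-derived against resident (24.9% higher, 25.7% lower) and 6.07% in converted against resident libraries (1.82% higher, 4.26% lower), and none is read as particular to its list. Of 14 listed, 9 could be tested, and the PD-1 gene Pdcd1 (26 reads), Cd40lg (10 reads), Igsf11, Lag3 and Cd160 could not. In converted against monocyte-derived libraries 5 were higher and 1 lower (median log2 0.49, all genes -0.01), in monocyte-derived against resident libraries 6 were lower (median -1.03, all genes -0.00), and in converted against resident libraries none passed in edgeR (median -0.26, all genes 0.01). In that last comparison 2 had an unadjusted p under 0.05 in edgeR, limma-voom called 1 and DESeq2 called 2 (all genes: 2749, 869 and 1315). Selplg, which encodes PSGL-1, a binding partner of VISTA, averaged 796 ± 82.3 CPM in converted, 221 ± 23.3 CPM in monocyte-derived and 801 ± 38.4 CPM in resident libraries. It was 3.61-fold higher in converted than in monocyte-derived libraries (adjusted p = 7.66e-07) and 3.63-fold lower in monocyte-derived than in resident libraries (adjusted p = 8.58e-07). Rgmb, a further binding partner of PD-L2, averaged 13.2 ± 0.664 CPM in converted and 6.30 ± 1.73 CPM in monocyte-derived libraries (log2 1.06 ± 0.19, adjusted p = 0.00125).

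Other B7-related and butyrophilin genes were tested for 12 of 18 found. The list also holds nectin, CD200, CD47 and other surface protein genes. Btnl2, the only butyrophilin-like gene tested, passed in no comparison. In converted against monocyte-derived libraries 2 were higher and 6 lower (median log2 -0.42), in monocyte-derived against resident libraries 6 were higher and 2 lower (median 0.20), and in converted against resident libraries 1 was lower (median -0.03). Nectin2, a ligand of the costimulatory receptor DNAM-1 and of the inhibitory receptor TIGIT, averaged 21.9 ± 2.25 CPM in converted, 7.82 ± 2.38 CPM in monocyte-derived and 25.2 ± 0.577 CPM in resident libraries, and was higher in converted than in monocyte-derived libraries (log2 1.49 ± 0.19, adjusted p = 0.000119). Cd200r1, an inhibitory receptor of myeloid cells, averaged 71.7 ± 1.18 CPM in converted, 273 ± 43.2 CPM in monocyte-derived and 73.3 ± 5.14 CPM in resident libraries. It was lower in converted than in monocyte-derived libraries (log2 -1.93 ± 0.11, adjusted p = 7.32e-07) and higher in monocyte-derived than in resident libraries (log2 1.89 ± 0.11, adjusted p = 9.19e-07). Its ligand gene Cd200 averaged 0.178 ± 0.133 CPM in converted, 10.5 ± 7.72 CPM in monocyte-derived and 1.09 ± 0.444 CPM in resident libraries and was lower in converted than in monocyte-derived libraries (log2 -5.84 ± 0.93, adjusted p = 0.000648). Without converted library 2 that log2 fold change was -6.53.

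The list of TNF family costimulators also holds receptors such as Fas and Tnfrsf1a and the ligand gene Tnfsf10, so it goes beyond costimulators in the strict sense. Of its 12 genes tested, 4 were higher and 4 lower in converted against monocyte-derived libraries (median log2 0.20), 4 were higher and 6 lower in monocyte-derived against resident libraries (median -1.24), and 1 was lower in converted against resident libraries (median 0.05). Tnfsf13b, which encodes the B-cell survival factor BAFF, averaged 11.8 ± 0.948 CPM in converted, 0.745 ± 0.143 CPM in monocyte-derived and 11.4 ± 0.522 CPM in resident libraries (converted against monocyte-derived log2 3.98 ± 0.19, adjusted p = 1.86e-07). Tnfsf9, which encodes the T-cell costimulator 4-1BBL, averaged 1.10 ± 0.270 CPM in converted, 15.2 ± 4.18 CPM in monocyte-derived and 1.47 ± 0.0955 CPM in resident libraries (converted against monocyte-derived log2 -3.78 ± 0.28, adjusted p = 3.09e-06). Of 19 genes of CD40 signalling, all tested, 2 were higher and 10 lower in converted against monocyte-derived libraries (median -0.40), 8 were higher and 3 lower in monocyte-derived against resident libraries (median 0.34), and 3 were lower in converted against resident libraries (median -0.25). In that last comparison limma-voom called 3 and DESeq2 called 6 (all genes: 869 and 1315). Nfkbia, the inhibitor of NF-kB, averaged 297 ± 41.3 CPM in converted and 159 ± 10.2 CPM in monocyte-derived libraries (log2 0.90 ± 0.10, adjusted p = 7.32e-05). The NF-kB subunit gene Rel averaged 10.5 ± 1.63 CPM in converted and 28.3 ± 2.32 CPM in monocyte-derived libraries (log2 -1.42 ± 0.14, adjusted p = 1.99e-05).

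Of 16 genes of the IL-4 receptor and STAT6 pathway, which raises PD-L2, 3 were higher and 10 lower in converted against monocyte-derived libraries (median log2 -0.35), 6 were higher and 2 lower in monocyte-derived against resident libraries (median 0.15), and 1 was lower in converted against resident libraries (median -0.21). In that last comparison 6 had an unadjusted p under 0.05 in edgeR, limma-voom called 3 and DESeq2 called 5 (all genes: 2749, 869 and 1315). The gene called in edgeR was Il4ra, the IL-4 receptor chain. It had 68.8, 76.9 and 74.9 CPM in the converted libraries, 198, 175 and 150 CPM in the monocyte-derived libraries and 139, 138 and 167 CPM in the resident libraries. The converted libraries lay below all others, and Il4ra was lower in converted than in resident libraries (log2 -1.01 ± 0.12, adjusted p = 0.00219). Batf3, a transcription factor gene, averaged 10.4 ± 2.88 CPM in converted, 79.5 ± 4.57 CPM in monocyte-derived and 10.2 ± 1.52 CPM in resident libraries (converted against monocyte-derived log2 -2.93 ± 0.19, adjusted p = 1.31e-06). The cytokine-signalling inhibitor gene Cish averaged 7.25 ± 5.32 CPM in converted, 77.0 ± 14.9 CPM in monocyte-derived and 20.3 ± 0.851 CPM in resident libraries (converted against monocyte-derived log2 -3.42 ± 0.44, adjusted p = 0.000178), and that log2 fold change was -4.14 without converted library 3.

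Of 12 genes of complement C3 and its receptors, whose fragments VSIG4 binds, 7 were higher and 3 lower in converted against monocyte-derived libraries (median log2 0.36), 4 were higher and 6 lower in monocyte-derived against resident libraries (median -0.35), and 1 was higher and 1 lower in converted against resident libraries (median 0.02). C3 itself averaged 1726 ± 211 CPM in converted, 330 ± 89.8 CPM in monocyte-derived and 1831 ± 245 CPM in resident libraries. It was higher in converted than in monocyte-derived libraries (log2 2.39 ± 0.19, adjusted p = 6.72e-06) and lower in monocyte-derived than in resident libraries (log2 -2.47 ± 0.19, adjusted p = 5.65e-06). Itgax (CD11c), a chain of complement receptor 4, averaged 0.237 ± 0.202 CPM in converted, 219 ± 37.1 CPM in monocyte-derived and 1.87 ± 0.350 CPM in resident libraries. It was lower in converted than in monocyte-derived libraries (log2 -9.86 ± 0.32, adjusted p = 3.23e-08), by -10.66 on the log2 scale without converted library 3.

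**Figure D5:**
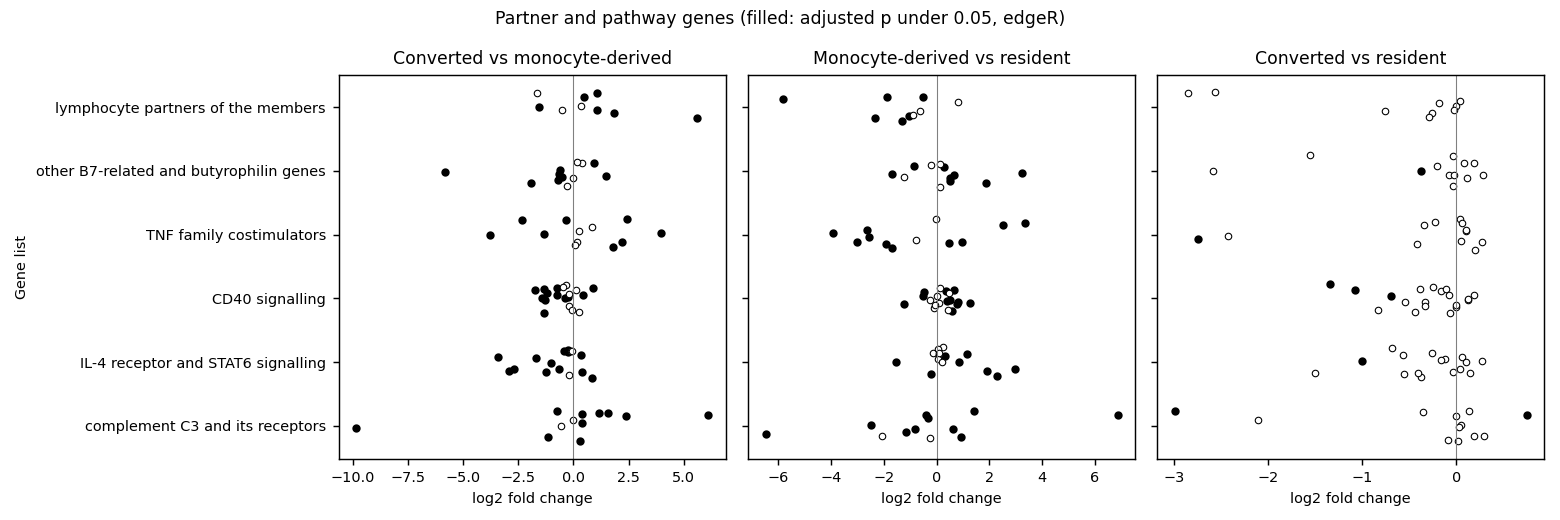
Log2 fold changes (horizontal axes, which differ in scale between panels) of the tested genes of 6 partner and pathway lists (rows) in converted against monocyte-derived (left), monocyte-derived against resident (middle) and converted against resident libraries (right); each dot is a gene, filled where the edgeR adjusted p is under 0.05. Filled dots are frequent in the left and middle panels and few in the right panel, where 3 of the 19 CD40 signalling genes are filled and all 3 lie below 0. Of these, the calls of Tnfaip3 and Traf1 did not hold with every library left out.

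Genes with the pattern most like each member were searched among 9717 protein-coding genes as the smallest root mean square difference of centred log2 CPM over the 9 libraries. Features that a gene found this way shares with its member, calls and single libraries included, are built into that choice. Nearest to Pdcd1lg2 were Grk3 (0.46), a receptor kinase gene, Fcrls (0.52) and F13a1 (0.54), which encodes the A chain of coagulation factor XIII. Grk3 had no read in the converted group and averaged 9.21 ± 1.77 CPM in monocyte-derived and 0.886 ± 0.0561 CPM in resident libraries. F13a1 averaged 1.08 ± 0.458 CPM in converted, 118 ± 24.6 CPM in monocyte-derived and 5.22 ± 2.13 CPM in resident libraries. Nearest to Vsig4 were Wnt2 (0.81), a Wnt ligand gene, Cxcl1 (0.85), a neutrophil chemokine gene, and Kcnn3 (0.88), a potassium channel gene, all at or below 0.154 CPM on average in monocyte-derived libraries. Nearest to Vsir were Gypc (0.05), Ak3 (0.08) and Laptm4a (0.08). Nearest to Havcr2 were Casp6 (0.29), Foxred2 (0.30) and Socs1 (0.31), and Casp6 had its highest level, 609 CPM, in monocyte-derived library 1, as Havcr2 did.

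For the other members, nearest to Cd274 were Fmn1 (0.20), Tns1 (0.20) and Cd300a (0.22), none of which passed the test in any comparison. Nearest to Cd80 were Tnfaip8, Ttll1 and Ripor1, each at 0.11. Nearest to Cd86 were Camta2 (0.07), St3gal1 (0.08) and Zfp1 (0.10), to Icosl Zfp609 (0.26), Fnbp1 (0.26) and Shmt2 (0.28), and to Cd40 Lsm10 (0.08), S100a13 (0.09) and Acox3 (0.09).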

How the data were processed

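The deposited values are raw counts of reads per gene for 9 libraries, aligned by the authors with TopHat2 2.1.0 to GRCm38 and counted with HTSeq, per the submitters' processing notes. The annotation and the strand setting of the counting were not given in the sources used here. Of 47729 gene identifiers, 47224 matched GENCODE M21. The summary lines for reads in no gene (4.02% to 5.66%) and ambiguous reads (4.47% to 4.68%) stayed out of library sizes and tests. Counts were tested with edgeR 4.0.16 in R 4.3.3: filterByExpr (minimum count 10, minimum total 15), TMM scaling, and the robust quasi-likelihood F-test in 1 fit of 3 group means (6 residual degrees of freedom), adjusted by Benjamini-Hochberg over 13223 genes and called at an adjusted p under 0.05. Levels are CPM on TMM-scaled library sizes. Levels per kb use the union of annotated exons. The ligand ratio adds 0.5 to each count and was tested by an exact permutation over libraries. Scripts were tested on simulated data.

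The members and gene lists were chosen with earlier results of these data known. Genes named from a list followed a rule: in each comparison, up to 2 called genes per direction, by size of fold change, whose larger group mean reached 5 CPM. Of those picked, the text describes genes whose printed calls held when single libraries were left out, a choice made after values were seen. The alternatives were other scaling, DESeq2 1.42.0, limma-voom (limma 3.58.1), no filter, 2-group fits, a replicate block, the B-cell sum as a covariate, leaving out each library, another offset, and the longest transcript as length. Between libraries of a group, counts gave a chi-square of 5.99 to 103 per degree of freedom, and none was treated as a duplicate. Limits from counts of 0 cover counting error only. Results for 1 further gene list are not reported here.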

Additional observations from a re-analysis of the deposited data

How the results depend on the processing

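Apart from the settings named here and in the report, calls and directions of the members held. With the B-cell sum as a covariate, 1777 genes were higher and 1822 lower in converted against monocyte-derived libraries (3416 and 3287 without it). In monocyte-derived against resident libraries the same covariate left 39 higher and 109 lower (3298 and 3400), with 0 members higher and 0 lower, and in converted against resident libraries 0 higher, 0 lower and 0 members (240, 563 and 1 in edgeR without it). At an unadjusted p under 0.05, 1234 genes and 0 members remained in that last fit. For converted against resident libraries, fitting these 2 groups alone called 900 genes higher and 1167 lower, DESeq2 called 500 higher, and leaving out 1 library called 24 to 751 higher and 221 to 877 lower. Both highest counts came without monocyte-derived library 1, the 24 came without resident library 1 and again without resident library 3, and the 221 came without resident library 3. The members called lower there were 2 in the 2-group fit, 2 with limma-voom and 1 to 2 with a library left out. The cause of these shifts was not tested.

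The replicate numbers did not pair the libraries: deviations from the group means correlated at -0.0939 to 0.0651 between same-numbered and at -0.0890 to 0.106 between differently numbered libraries. With the replicate block, 115 genes were higher in converted against resident libraries, and no call of a member changed.

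Log2 fold changes that changed sign were these. In converted against monocyte-derived libraries the log2 fold change of Cd40 ranged over -0.127 to 0.179 when 1 library was left out, and that of Il13ra1 was -0.032 with the covariate. In monocyte-derived against resident libraries the covariate turned Btla (7.22), Ltb (2.33), Nectin2 (0.130), Tnfsf12 (-0.145) and Traf5 (-0.426), and with 1 library left out Cd274 ranged over -0.098 to 0.429 and Plgrkt over -0.147 to 0.155. In converted against resident libraries the covariate turned Cd80 (-0.150), Icosl (1.18), Vsir (-0.348), Havcr2 (0.193), Ltb (1.05) and Ric1 (-0.613). Cd80 was also -0.00 with RLE scaling and -0.016 in the 2-group fit, and Selplg was 0.001 with no filter. With 1 library left out, this comparison gave -0.062 to 0.107 for Cd80, -0.273 to 0.003 for Icosl, -0.111 to 0.118 for Ric1, -0.427 to 0.029 for A930007I19Rik and -0.078 to 0.070 for Selplg.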

Other observations

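Markers of further cell types were measured in the same libraries and their part in the results was not tested. T-cell markers, 10 genes, summed to 4.22 to 12.1 CPM in converted, 5.49 to 22.9 CPM in monocyte-derived and 39.9 to 55.9 CPM in resident libraries, led by Cd2 at 22.1 ± 1.08 CPM in resident libraries. Cd3e, of the same list, averaged 0.763 ± 0.490 CPM in converted, 1.17 ± 1.4 CPM in monocyte-derived and 3.61 ± 0.903 CPM in resident libraries. Neutrophil markers, 8 genes, summed to 10.1 to 19.9 CPM in converted libraries, where S100a9, Ngp and Mmp8 had no read, 57.5 to 99.9 CPM in monocyte-derived libraries and 17.2 to 18.0 CPM in resident libraries, where Retnlg and Ngp had no read. Markers of eosinophils and mast cells summed to 3.66 to 5.25 CPM in converted, 8.50 to 17.4 CPM in monocyte-derived and 18.5 to 24.7 CPM in resident libraries, and Prg2 and Epx had no read in any group. Mesothelial markers summed to at most 3.18 CPM in any library.

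The 6 genes listed as markers of recruited monocytes did not move together. Chil3, which IL-4 also raises in macrophages, held most of their sum and averaged 89490 ± 11340 CPM in converted, 28820 ± 8472 CPM in monocyte-derived and 78770 ± 5565 CPM in resident libraries. Ccr2 averaged 2.32 ± 0.139 CPM in converted, 823 ± 462 CPM in monocyte-derived and 10.6 ± 1.05 CPM in resident libraries.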
